A study of Mus musculus with 4 samples.

Results

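The late-numbered mouse miRNAs are the miRBase entries whose miR number is 1000 or higher, and they were followed here in small RNA from exosome-enriched preparations of astrocytes. They were chosen by number alone, with any letter or arm allowed, and the rule used no measured value. Of the 389 mature miRNAs in the deposited table, 118 met the rule. Of the remainder, 256 had a number below 1000 and 15 were let-7 rows, which carry no miR number. The preparations came from the culture supernatant of C8-D1A, an established wild-type mouse astrocyte cell line, by ultracentrifugation. The 2 control libraries came from cells kept at 37 °C, for 8 h according to the labels and for 2 h according to the culture methods. The 2 heat stress libraries came from cells held at 42 °C for 2 h and rewarmed at 37 °C for 6 h. All 4 libraries share the cell line and serum-containing culture, so that small RNA of the serum cannot be told apart from that of the cells.

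miRNAs are short RNAs that Dicer cuts from a hairpin precursor and that Argonaute proteins carry to partly complementary messenger RNAs. Pairing runs mainly through the seed, bases 2 to 8 of the mature strand, and miRNAs with the same seed are placed in 1 family. miRBase numbers entries in order of registration. The low numbers therefore hold many of the conserved, abundant families found by early cloning, whereas most high numbers came from deep sequencing. High-numbered entries include mirtrons, whose hairpin is a whole short intron, and entries whose sequence also occurs in repeats or in other non-coding RNAs. An entry without 5p or 3p in its name is one for which no arm was assigned.

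The sequences of the most abundant members are shown first, because their composition and shared runs recur in the results. Mature sequences were taken from RefSeq (build GRCm38.p6), with the seed in capitals, and 108 of the 118 members had one. MiR-5099, the member with the highest mean value, was not among them and is named only.
miR-1198-5p: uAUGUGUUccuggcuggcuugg
miR-3473b: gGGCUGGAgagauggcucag
miR-3473e: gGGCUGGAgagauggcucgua
miR-6538: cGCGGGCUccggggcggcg
miR-2137: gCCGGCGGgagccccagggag
miR-5126: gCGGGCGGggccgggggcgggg
miR-5128: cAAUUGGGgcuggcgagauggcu
miR-1981-5p: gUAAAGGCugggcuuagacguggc
miR-6239: uAGCGUUGgaucacucggug

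The second set holds the 9 members that passed the threshold for a heat stress difference, the first 4 of them higher and the other 5 lower after heat stress.
miR-1947-5p: aGGACGAGcuagcugagugcug
miR-3095-3p: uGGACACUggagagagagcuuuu
miR-1195: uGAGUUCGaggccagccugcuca
miR-1843a-3p: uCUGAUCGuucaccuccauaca
miR-3077-5p: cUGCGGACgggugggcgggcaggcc
miR-1895: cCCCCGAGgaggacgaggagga
miR-7080-5p: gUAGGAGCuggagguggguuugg
miR-5108: gUAGAGCAcuggaugguuu
miR-5106: aGGUCUGUagcucaguuggcaga

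The third set holds further members whose reads are hard to assign to 1 entry. The first 3 share long runs with other members, and miR-3470b occurs in the transcripts of many other genes.
miR-3473a: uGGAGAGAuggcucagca
miR-1843a-5p: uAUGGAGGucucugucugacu
miR-1843b-5p: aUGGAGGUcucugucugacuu
miR-3470b: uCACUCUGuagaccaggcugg

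The values are the normalized signal deposited by the authors, 1 value per miRNA and library. Within each library every value was a whole multiple of 1 step, which was 1.35 (control 1), 0.782 (control 2), 0.790 (heat stress 1) and 1.00 (heat stress 2). Summed over all rows, the libraries held 43675 and 95020 steps (control) and 100933 and 63338 steps (heat stress). If a step is worth 1 read, a value of 0 allows up to 3 reads, which is 4.06, 2.35, 2.37 and 3.00 in the same order and covers counting error only. The markers of the labelled cell type were uneven. MiR-9-5p, a neural and astroglial miRNA, had values of 122 and 0 in the controls, against 138 and 48.0 after heat stress. Its other arm, miR-9-3p, was at 56.9 and 0 against 4.74 and 0, and neuronal miR-124-3p was at 4.06 or below in every library. Muscle miR-1a-3p was lower after heat stress without overlap, at 24.4 and 73.5 against 3.16 and 0, while muscle miR-206-3p ranged from 14.9 to 34.4. Muscle miR-133a-3p, also looked for, had no row. MiR-122-5p, the liver miRNA that serum also carries, was above 0 in every library at 90.8, 33.6, 20.5 and 76.1. Erythroid miR-451a ranged from 15.0 to 37.0 and erythroid miR-486a-5p from 531 to 933, whereas erythroid miR-144-3p and myeloid miR-223-3p were at 0 in every library except heat stress library 1, at 1 step. The part of these other sources in the results below was not tested.

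Late-numbered miRNAs were a minor part of the small RNA. Their share of the summed value was 7.50% in control library 1 and 4.44% in control library 2, compared with 2.82% and 4.34% after heat stress. The group means were 5.97% ± 2.16 and 3.58% ± 1.08 (SD, n = 2 each), a difference of -2.39 percentage points (exact permutation test, two-sided, p = 0.333). That is the smallest p that 2 libraries against 2 can give. The groups did not overlap, but control library 2 and heat stress library 2 were nearly level, so that most of the difference came from the other 2 libraries. Rows numbered below 1000 held 70.8% to 78.4% of the summed value. The median of the mean value over the 4 libraries was 2.63 for the members and 6.75 for rows below 1000. A mean of at least 10 was reached by 30 members (25.4%) and by 117 rows below 1000 (45.7%), and a mean of at least 100 by 9 and 45.

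The summed value of the members was concentrated in a few entries. The 3 members with the largest mean value made up 47.6% and 47.5% of the late-numbered value in the control libraries. In the heat stress libraries they made up 57.7% and 40.9%. MiR-5099 ranked 22nd of all rows by mean value, at 994 and 803 in the controls and 231 and 446 after heat stress. Both control values lay above both heat stress values, and the control mean was 2.65 times the heat stress mean. Even so, the log2 change was -1.47 ± 0.888 (SE), with a limma p of 0.159 and an adjusted p of 0.686. MiR-1198-5p was the member with an assigned arm that had the highest mean, at 507 and 487 in the controls and 908 and 424 after heat stress. Its groups overlapped, and heat stress library 1 alone stood above the rest. As a result, the ratio of miR-1198-5p to miR-5099 was 0.510 and 0.606 in the control libraries but 3.93 and 0.951 after heat stress.

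MiR-3473b and miR-3473e share their seed and a run of 18 bases, and their values moved together. MiR-3473b had values of 611 and 278 in the controls, against 156 and 256 after heat stress. MiR-3473e was at 547 and 205 against 128 and 201. The ratio of miR-3473e to miR-3473b stayed between 0.738 and 0.896 over the 4 libraries, and in both the group means differed by less than the 2 control libraries did. Their log2 changes were -1.04 ± 0.932 and -1.06 ± 0.966 (SE), neither past the threshold. The table held 7 miR-3473 rows, which summed to 1195 and 511 in the controls and 285 and 491 after heat stress. Of the 5 rows tested, each had a log2 change below 0, from -2.30 for miR-3473f to -0.11 for miR-3473a. For miR-3473a the means on the linear scale went the other way, at 4.77 (control) and 13.5 (heat stress), because of heat stress library 2 at 27.03, and its log2 change ran from -2.52 to 2.29 as 1 library was left out. Rows that share such runs were counted separately by the authors, and how their reads were divided is not given in the sources used here.

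The next members by mean value were entries without an arm. MiR-6538 had values of 171 and 355 in the controls, against 41.1 and 178 after heat stress. MiR-2137 was at 268 and 110 against 16.6 and 148, and miR-5128 at 215 and 79.8 against 45.8 and 102. In these 3 members heat stress library 1 was the lowest, while heat stress library 2 lay within the control range. MiR-5126 was also lowest in heat stress library 1, with 144 and 163 in the controls and 34.8 there, but heat stress library 2 was its highest at 199. MiR-1981-5p went the other way, at 106 and 69.6 in the controls and 147 and 117 after heat stress, with no overlap and a log2 change of 0.61 ± 0.857 (SE). MiR-6239 had the widest range of these 10 as a ratio, at 96.2 in control library 1 but 2.35 in control library 2, against 43.5 and 77.1.

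**Figure D1:**
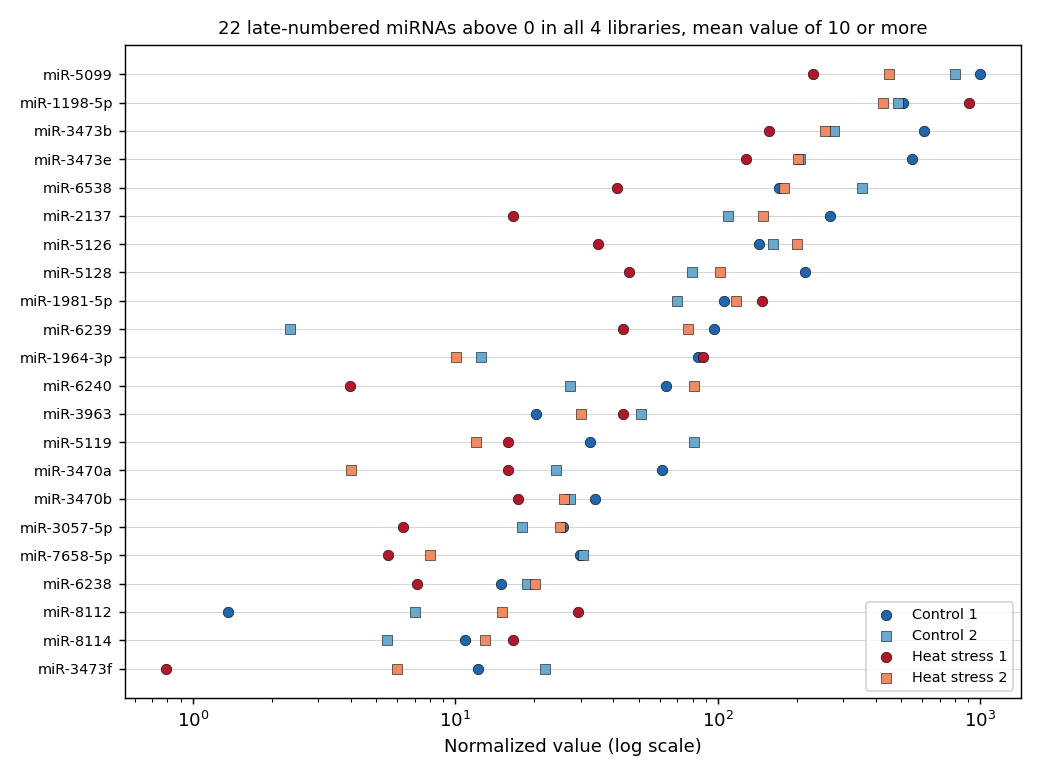
Normalized value (horizontal axis, log scale) of the 22 late-numbered miRNAs that were above 0 in all 4 libraries with a mean of at least 10, ordered by mean; each point is 1 library (blue control, red heat stress; circles replicate 1, squares replicate 2). Heat stress library 1 is the lowest point in 13 of the 22 rows, among them miR-5099, miR-2137 and miR-6240. It is the highest for miR-1198-5p, miR-1981-5p, miR-1964-3p, miR-8112 and miR-8114.

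Heat stress library 1 was the lowest of the 4 libraries in 7 of the 10 members with the largest mean value and in 13 of the 23 members above 0 in every library (56.5%). Among the 106 rows below 1000 that were above 0 in every library it was the lowest in 29 (27.4%). Of these 23 members, 18 had no arm in their name, and heat stress library 1 was the lowest in 11 of them. The share of the summed value held by members without an arm was 5.73% and 3.23% in the control libraries, 1.14% in heat stress library 1 and 3.10% in heat stress library 2. The difference between groups was -2.36 percentage points (exact permutation test, two-sided, p = 0.333, the smallest possible). The shares of members with an assigned arm were much closer. The 5p members held 1.57% and 1.07% (control) and 1.47% and 1.12% (heat stress), and the 3p members between 0.126% and 0.206% in each library. Their group means differed by -0.02 and -0.003 percentage points, with an exact permutation p of 1.0 for both. The 17 rows below 1000 without an arm summed to 568 and 518 in the control libraries. Their sum was 349 in heat stress library 1, again the lowest, and 630 in heat stress library 2. Whether the members without an arm differed from those with one was not tested.

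**Figure D2:**
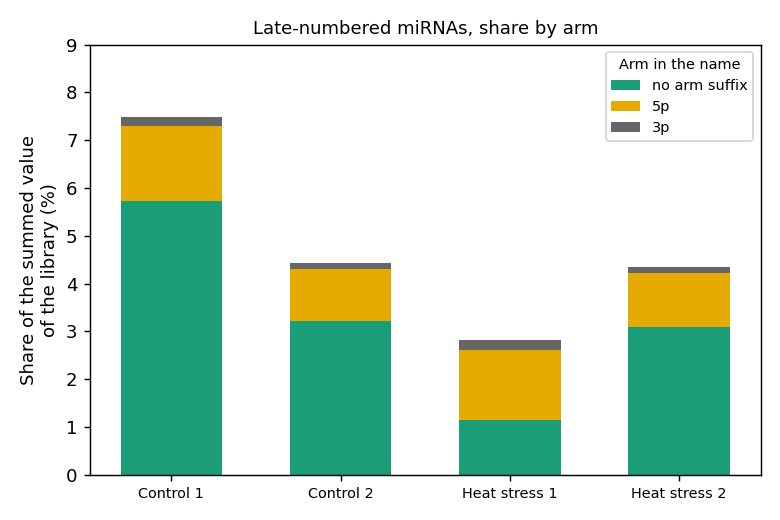
Share of the summed value of each library (vertical axis, %) held by late-numbered miRNAs, stacked by the arm in the name. The segment without an arm falls from 5.73% in control library 1 to 1.14% in heat stress library 1, while the 5p segment stays between 1.07% and 1.57% and the 3p segment at or below 0.206%.

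Detection of the members was sparse and differed between libraries more than between groups. Above 0 were 54 and 62 of the 118 members in the control libraries (45.8% and 52.5%) and 49 and 71 in the heat stress libraries (41.5% and 60.2%). The heat stress libraries held both the fewest and the most. The difference of the group means was 2 members (exact permutation test, two-sided, p = 1.0). Of the 256 rows below 1000, 156 and 148 were above 0 in the control libraries and 188 and 184 in the heat stress libraries, a difference of 34 (exact permutation p = 0.333, the smallest possible). The 2 libraries with the most detected members, heat stress 2 and control 2, were not the 2 with the largest sum of steps, which were heat stress 1 and control 2. With each library thinned to 43675 steps, the expected number of members above 0 was 54.0 and 57.5 in the control libraries and 43.6 and 67.4 in the heat stress libraries.

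More than every second member was seen in 1 library only. Above 0 in 1 library were 65 members (55.1%), against 81 rows below 1000 (31.6%), and in all 4 libraries 23 members (19.5%) against 106 (41.4%). The values of the single-library members were low, with a median of 5 steps and a maximum of 60 steps, and 51 of the 65 had fewer than 10 steps. Control library 2 and heat stress library 2 held 20 and 23 of them, control library 1 and heat stress library 1 held 11 each. Entries numbered 6000 and above, registered last, were the sparsest. Of these 52 members, 40 (76.9%) were above 0 in 1 library only. Members seen in the control group alone numbered 32 and members seen in the heat stress group alone 37, but only 1 and 3 of these were above 0 in both libraries of that group. These 4 are described with the heat stress difference. Of the 256 rows below 1000, 27 were seen in the control group alone and 67 in the heat stress group alone. Among these rows, 0 and 13 were above 0 in both libraries of that group. The larger number on the heat stress side was thus not particular to the members.

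**Figure D3:**
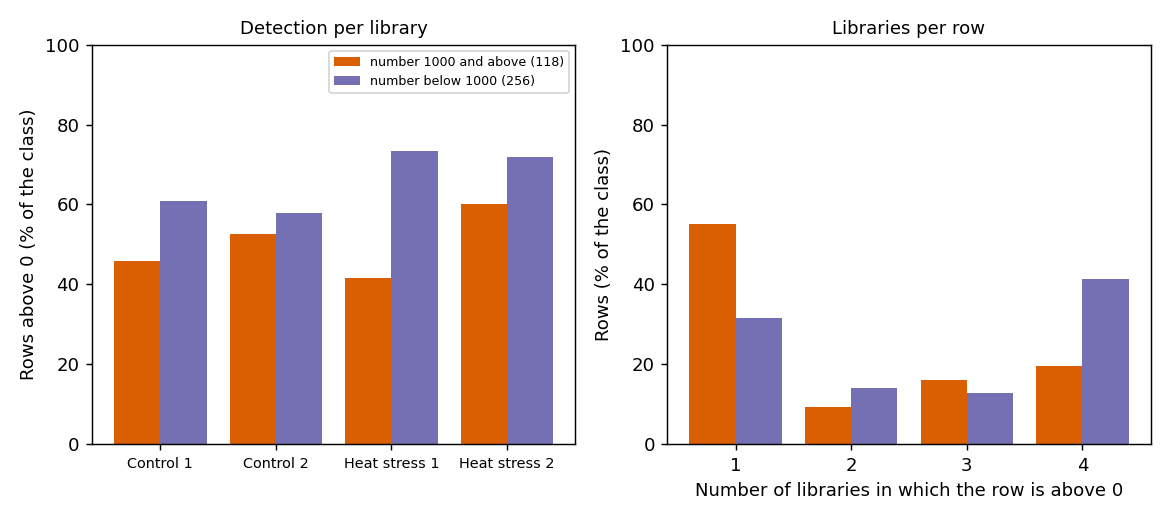
Left, percentage of rows above 0 (vertical axis) in each library for the 118 late-numbered miRNAs (orange) and the 256 rows below 1000 (violet). Right, percentage of each class (vertical axis) by the number of libraries in which a row was above 0 (horizontal axis); 55.1% of the late-numbered miRNAs and 31.6% of rows below 1000 were seen in 1 library.

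The order of the members by level also varied more between libraries. Over the 87 members with a mean of at least 1, Spearman's rho between pairs of libraries was 0.361 to 0.579, whereas over 212 rows below 1000 it was 0.719 to 0.788. These correlations are across miRNAs, which are not independent replicates, and they share the depth of their libraries. The 2 sets were not matched for level or for values of 0, and 37 of the 87 members were above 0 in 1 library only. Among the members, the lowest rho was between control library 2 and heat stress library 1. The highest was between the 2 heat stress libraries, and the 2 control libraries gave 0.505.

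To ask which members differed after heat stress, log2(value + 1) was compared with limma over the 313 rows with a mean of at least 1. A call required over 2-fold and an unadjusted p below 0.05, which is the threshold in the study's methods. Of the 87 members tested, 4 were called higher and 5 lower (4.60% and 5.75%). Over all 313 rows the same rule called 4.47% higher and 2.88% lower, so the share higher is that of the table as a whole. With so few calls, the 5 that were lower are listed by their values and no excess is claimed. Of limma's Benjamini-Hochberg adjusted p-values, 0 of the members' were under 0.05 and the lowest was 0.513, whereas 9 members were under 0.05 before adjustment. The median log2 change of the members tested was -0.86, beside 0.12 over all 313 rows and 0.18 over the 212 rows below 1000. Of the 87, 52 lay below 0 and 35 above, and 67 lay beyond 2-fold, with a median SE of 1.25. The 37 members tested that were seen in 1 library only all lay beyond 2-fold, and none of the 37 was called. The filter fixes the first of these, since a mean of at least 1 held by 1 library alone always gives over 2-fold here. These 37 are part of the 67. Control and heat stress libraries did not overlap in 7 members that were higher (8.05%) and in 16 that were lower (18.4%), beside 16.0% and 11.5% of all 313 rows. As a share of all 118 members these are 5.93% and 13.6%, beside 13.4% and 9.25% of all 389 rows. Of the 87, 5 were higher and 15 lower by more than 2-fold without overlap, beside 9.9% and 9.27% of all 313 rows.

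**Figure D4:**
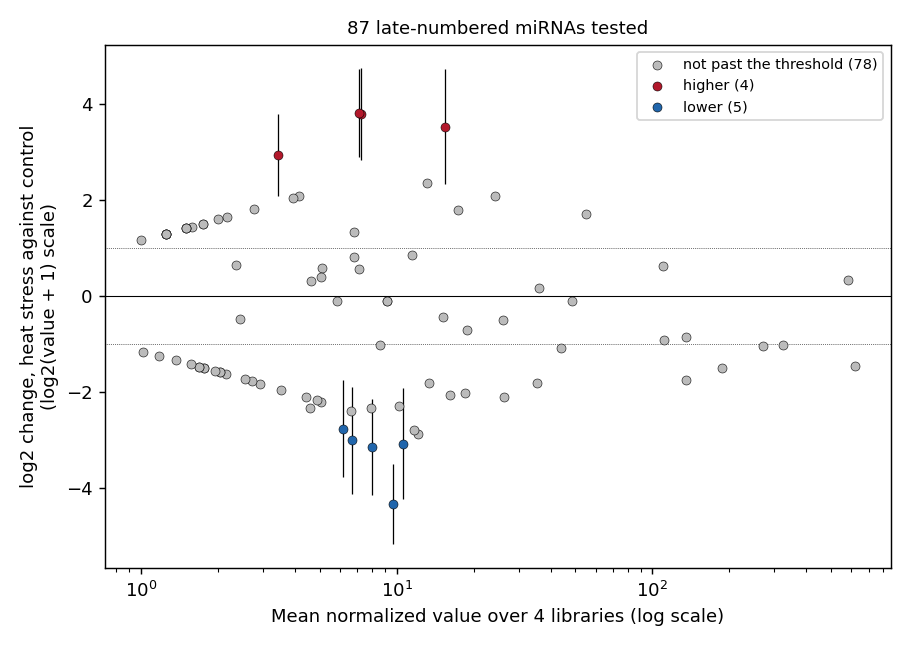
Log2 change, heat stress against control, on the log2(value + 1) scale (vertical axis) against the mean normalized value over the 4 libraries (horizontal axis, log scale) for the 87 late-numbered miRNAs tested; dotted lines mark 2-fold, and bars on the called members are the SE. The 4 called higher (red) and the 5 called lower (blue) all have low means, while the members with the highest means lie mostly below 0 and were not called.

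By arm, the medians were -0.93 over 33 members without an arm, -1.17 over 37 5p members and 1.40 over 17 3p members. Rows below 1000 had medians of 0.09 without an arm, 0.31 for 5p and 0.12 for 3p. The members' 3p median equalled the change of miR-1947-3p, seen at 6.01 in heat stress library 2 alone. Their 5p median was that of miR-12181-5p, at 4.06 in control library 1 alone. By number, the members' medians were 0.46 over 22 from 1000 to below 2000 and -0.49 over 18 from 3000 to below 4000. They were -1.25 over 10 from 4000 to below 6000 and -1.21 over 36 numbered 6000 and above. Of those 36, 25 were above 0 in 1 library only. In the members above 0 in all 4 libraries, where no 0 enters the change, 16 of 23 lay below 0 with a median of -0.86. The 141 rows of the table above 0 in all 4 libraries had a median of 0.00. Of the 23 members, 8 did not overlap and were lower and 3 did not overlap and were higher, beside 16.3% lower and 19.1% higher of those 141 rows. Even so, 0 of the 23 passed the threshold, with a smallest unadjusted limma p of 0.0622 for miR-7658-5p. MiR-7658-5p had values of 29.8 and 30.5 in the controls, against 5.53 and 8.01 after heat stress. MiR-5119 was at 32.5 and 81.4 against 15.8 and 12.01, also without overlap. When the fit was limited to rows with at least 10 steps in every library, 13 members were left, of which 0 were called higher and 2, miR-5099 and miR-5119, were called lower. Over the 104 rows of that fit 1.92% were called higher and 4.81% lower.

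Members higher after heat stress were at or near 0 in the controls. MiR-1947-5p was at 0 in control libraries 1 and 2 and had values of 20.5 and 8.01 after heat stress. With each control 0 set to the 3 reads it allows, the heat stress mean is 4.45 times the control mean. That ratio takes a step as 1 read and leaves out the spread between libraries. The log2 change of miR-1947-5p was 3.80 ± 0.921 (limma, unadjusted p = 0.00935, adjusted p = 0.513). MiR-3095-3p was likewise at 0 in both controls, with 7.11 and 22.0 after heat stress, a ratio of 4.54 on the same terms. Its log2 change was 3.77 ± 0.958 (limma, unadjusted p = 0.0112, adjusted p = 0.513). In both, the heat stress mean therefore exceeded the limit that a 0 allows. MiR-1843a-3p was at 0 and 0 against 8.69 and 5.005, a ratio of 2.14 on the same terms. Its log2 change was 2.93 ± 0.858 (limma, unadjusted p = 0.0193, adjusted p = 0.612). MiR-1195 had values of 5.42 and 0 in the controls, against 24.5 and 32.0 after heat stress, a log2 change of 3.52 ± 1.20 (limma, unadjusted p = 0.0327, adjusted p = 0.612). It had the highest values of the 4 and was the only 1 of them above 0 in a control library.

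Members lower after heat stress had control values between 4.06 and 25.7. MiR-3077-5p had values of 21.7 and 17.2 in the controls but 0 in heat stress libraries 1 and 2. With each of these 0s set to 3 reads, the control mean is 7.24 times the heat stress mean, again without the spread between libraries. MiR-3077-5p had a log2 change of -4.34 ± 0.836, with the smallest unadjusted limma p of the table, 0.00359 (adjusted p = 0.513). It was the only member above 0 in both controls and at 0 in both heat stress libraries. MiR-1895 was at 19.0 and 11.0 against 0 and 2.00, and miR-7080-5p at 25.7 and 12.5 against 0 and 4.00. Their log2 changes were -3.16 ± 0.999 and -3.09 ± 1.15 (limma, unadjusted p = 0.0255 and 0.0446, adjusted p = 0.612 for both). MiR-5106 was at 14.9 and 7.82 against 0 and 2.00, a log2 change of -2.77 ± 1.01 (limma, unadjusted p = 0.0407, adjusted p = 0.612). MiR-5108 was at 4.06 and 21.9 against 0.790 and 0, a log2 change of -3.01 ± 1.11 (limma, unadjusted p = 0.0432, adjusted p = 0.612). In none of these 5 did the groups overlap, and heat stress library 1 was at 0 in each but miR-5108, where it was at 1 step. With values of so few steps, the log2 changes rest in part on the 1 added to each value. With a pseudocount of 0.1 the calls of miR-1895, miR-7080-5p, miR-5106 and miR-5108 were lost, as was that of miR-1195 among the higher members, and only miR-3077-5p was still called lower.

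Both arms of 9 hairpins had a row. In 28 combinations of hairpin and library at least 1 arm was above 0, and both arms were in 9 of them, spread over 6 hairpins. MiR-1249, miR-1306 and miR-1934 had both arms above 0 in 2 libraries each. MiR-1981-5p was at 69.6 or more in every library, while miR-1981-3p reached 15.8 in heat stress library 1 with 0 in the other 3. For miR-1843a, the 3p arm was seen in the heat stress libraries as given above, whereas the 5p arm reached 26.6 in control library 2 with 0 elsewhere. MiR-1843b-5p followed it at 46.9 in control library 2 and 0 elsewhere. The 5p arms of miR-1843a and miR-1843b share a run of 20 bases, so that reads of the pair are hard to tell apart. The 3p arm of miR-1947 reached 6.01 in heat stress library 2 and was at 0 in the other 3, so both its arms were seen only after heat stress. The 3p arm of miR-7080 was at 6.26 in control library 2 alone.

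The mature sequences of the members were rich in G and C. The median was 59.1% over the 108 members with a sequence (interquartile range 50.0% to 63.6%), beside 50.0% over the 325 rows of the table with one. The median share of G alone was 38.1%, beside 29.2%. Of the 7 rows in the table with at least 80% G and C, 6 were members, among them miR-5126 at 100%, miR-6538 at 94.7%, miR-2137 at 85.7% and miR-3077-5p at 84.0%. As printed above, miR-5126 has no A or U at all. These 6 members summed to 604 and 645 in the control libraries, to 104 in heat stress library 1 and to 526 in heat stress library 2. Heat stress library 1 thus stood apart from the other 3. The members' median length was 22 bases, with a range of 18 to 26, as in the table as a whole.

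**Figure D5:**
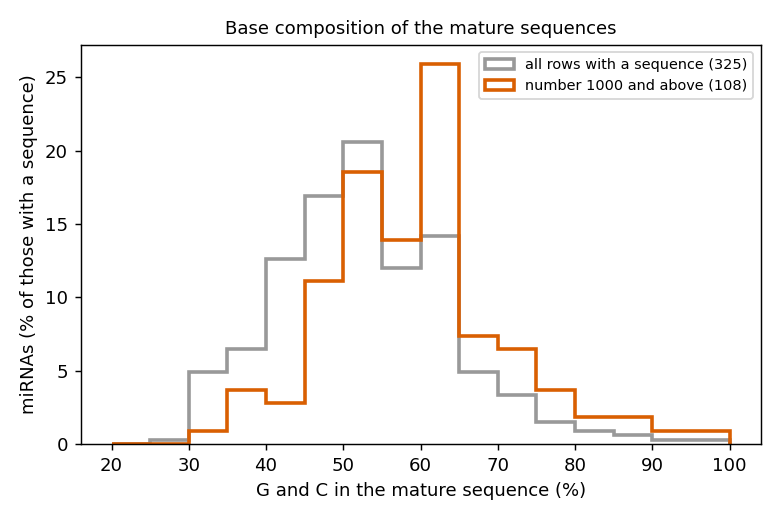
Distribution of the G and C content of mature sequences (horizontal axis, %) as the percentage of miRNAs with a sequence (vertical axis), for the 108 late-numbered miRNAs (orange) and for all 325 rows with a sequence, members included (grey). The late-numbered miRNAs lie to the right, with a median of 59.1% beside 50.0%.

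The members formed almost no families. Only 5 of 108 (4.63%) shared their seed with another row of the table, beside 24.3% of all rows with a sequence. MiR-3473b and miR-3473e shared theirs with each other, and miR-1943-5p, miR-6240 and miR-1947-3p shared theirs with miR-149-3p, miR-330-3p and miR-674-5p. MiR-3962 held a run of 17 bases of let-7g-5p but was at 1 step in control library 1 and at 0 elsewhere. After the sequences had been seen, the letters GAGAUGGC were searched on both strands of the mature sequences, since they recur in the miR-3473 entries. They occurred in 5 members (4.63% of 108), namely miR-3473b, miR-3473e, miR-3473a, miR-5128 and miR-7667-3p, and in 6 of the 325 rows with a sequence (1.85%), while the reverse complement occurred in none. These letters belong to the opening of the mouse B2 short interspersed repeat, which is copied throughout the genome.

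The full sequence of 4 members also occurred in the transcripts of 5 or more other genes in the GENCODE M21 annotation of GRCm38. Only exact matches of the whole sequence in these transcripts were searched. Partial matches, and copies in RNAs or repeats outside the annotation, were therefore not counted for any member. MiR-3470b, whose sequence is that of a B1 repeat, was found in 486 other genes, miR-3473b in 311, miR-3473a in 136 and miR-3472 in 6. Among rows below 1000 only miR-706 was found as widely, in 199. MiR-3470b itself had values of 33.9 and 27.4 in the controls, against 17.4 and 26.02 after heat stress, a log2 change of -0.50 ± 0.853 (SE). The 4 members summed to 649 and 312 in the control libraries and to 174 and 309 in the heat stress libraries. A different 9 members matched an annotated snoRNA or scaRNA in full, the guide RNAs that direct the modification of other RNAs. These were both arms of miR-1843a and miR-1843b, miR-3535, miR-1291, miR-1839-5p, miR-3068-3p and miR-6516-5p. They summed to 0 in control library 1, 87.6 in control library 2, 10.3 in heat stress library 1 and 37.0 in heat stress library 2.

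Most members lay within protein-coding genes. A hairpin was placed for 98 members, and for 81 of them (82.7%) it lay in the sense direction of a protein-coding gene. No comparison with the whole table is made, because a hairpin was placed for only 76.9% of its rows. Over all genes in the same direction, 52 lay in an intron, 29 overlapped an exon of any transcript and 5, from 3 hairpins, filled a short intron as mirtrons do. A further 4 lay antisense to a gene and 8 between genes. MiR-1198-5p lies at chrX:7807142-7807163 (+ strand) in an intron of Gripap1, which encodes a GRIP1-associated neuronal trafficking protein. The short-intron members included miR-1981-5p at chr1:184822465-184822488 (- strand) in Marc2 and miR-7080-5p at chr8:123130106-123130128 (+ strand) in Cpne7. The 5 summed to 131 and 98.6 in the control libraries and 163 and 121 in the heat stress libraries, which overlapped. Of the called members, miR-1947-5p lies at chr16:33105375-33105396 (+ strand) in an intron of Lmln and miR-3095-3p at chr4:58441023-58441045 (- strand) in an intron of Lpar1, a lysophosphatidic acid receptor. MiR-3077-5p lies at chr14:57798424-57798448 (+ strand), and its hairpin overlaps an exon of Sap18, which encodes a subunit of the Sin3 histone deacetylase complex. MiR-5126 lies at chr1:84695890-84695911 (+ strand), and its hairpin overlaps an exon of Dner in antisense.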

How the data were processed

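Small RNA of exosome-enriched preparations was sequenced in 2 control and 2 heat stress libraries, called biological replicates by the submitters. The authors removed adapters, low-quality reads and reads under 17 nt, mapped clean reads to a reference genome using Bowtie (the submitters' processing notes name FastQC and BWA) and deposited 1 normalized signal value per miRNA and library. The normalization, genome build and miRBase release are not given in the sources used here. A second table holds the authors' own fold changes and p-values and was not used.

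Values are whole multiples of 1 step within 0.001 step, but that a step is 1 read is not established, so no count model was run. log2(value + 1) was fitted with limma 3.58.1 (R 4.3.3), condition the only term, over the 313 rows with a mean of at least 1, with Benjamini-Hochberg adjustment. Calls required over 2-fold with an unadjusted p below 0.05. This scale understates changes of low values. The fit was run on simulated data with large changes placed outside the rows with the lowest values. That run does not give its error for members near 0 in particular. Shares and detection were compared by exact permutation over libraries. The members, lists and motif were chosen with earlier results of these data known. Named were called members, the 10 with the largest mean, members seen in both libraries of 1 group alone, members the paper names and, from other arms, same-numbered rows and members above 0 in all 4 libraries with a mean of at least 10, examples beside their counts. Examples from rows outside this rule (miR-1943-5p, miR-3962, miR-3472, miR-3535 and other entries matched by sequence) were chosen after their values were seen. Hairpin positions came from the same reference as the mature sequences, by gene symbol, and were overlapped with the genes of GENCODE M21 (GRCm38). A hairpin that overlapped any exon of any transcript of a gene was counted as exonic, unless it filled a short intron. Alternatives were other pseudocounts, filters, scalings, a mean-dependent variance prior, a replicate block and left-out libraries.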

Additional observations from a re-analysis of the deposited data

How the results depend on the processing

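The number of late-numbered miRNAs called (4 higher, 5 lower) depended on the treatment of low values. It was 3 higher and 1 lower with a pseudocount of 0.1, 3 and 2 on log2(CPM + 1), 2 and 2 at a mean of at least 10, 0 and 2 with at least 10 steps in every library, and 1 and 4 with a mean-dependent variance prior. Of the members numbered 2000 and above, 1 was called higher and 4 lower. At more than 2-fold without overlap and without a p, 5 were higher and 15 lower. MiR-5099 was among the calls with the changed prior and at 10 steps, where none of the 9 reported calls could be tested, since each had under 10 steps in some library. In every fit 0 rows had an adjusted limma p under 0.05, against 9 late-numbered members with an unadjusted p under 0.05 in the reported fit. With a replicate block the calls were 3 and 2, of which 4 were among the 9 reported (miR-1843a-3p, miR-1947-5p, miR-3095-3p and miR-3077-5p) and 1, miR-1306-3p, was not. The labels do not say whether same-numbered libraries were prepared together. Deviations of same-numbered libraries had r = -0.0189 over 313 miRNAs, which cannot settle this with 2 libraries per group.

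Leaving out 1 library gave 2 to 18 higher and 2 to 16 lower calls, where the lone library of a group is assumed to vary like the others. Without control library 1 there were 4 higher and 16 lower, without control library 2 there were 2 and 10, without heat stress library 1 there were 18 and 2, and without heat stress library 2 there were 9 and 10. The median log2 change then ranged from -1.48 to -0.22 and the difference in share from -3.92 to -0.86 points, the latter without control library 1. Neither changed sign under any alternative run, and the median was -0.19 with no filter on low values. The difference in detection ranged from -9 to 13, with -2 without control library 1 and -9 without heat stress library 2. It was also negative for numbers of at least 2000 (-1.5), at 3 steps (-4), at 10 steps (-7) and after thinning (-0.281). With 1 library left out, the log2 change of 9 named members turned. It ranged from -0.23 to 0.87 for miR-1198-5p, -1.62 to 1.39 for miR-1964-3p, -1.62 to 0.21 for miR-3057-5p, -2.52 to 2.29 for miR-3473a, -0.48 to 0.80 for miR-3963, -2.10 to 0.38 for miR-5126, -1.13 to 0.25 for miR-6238, -0.72 to 4.14 for miR-6239 and -3.11 to 0.94 for miR-6240. The cause was not tested. With all 4 libraries, 282 of the single-miRNA values compared kept their side of the threshold, 22 lost the call and 7 gained one.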
